A study of Rattus norvegicus with 107 samples.

Results

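The goblet cell secretory genes are Spink4, Zg16, Retnlb, Tff3, Agr2, Clca1, Muc2 and Fcgbp, whose products leave the goblet cell with the mucus or help to make it. They were found by their symbols in the annotation of the array. Of the 8 genes, 6 had a named probe, each with 1 probe, among 22523 probes in all, of which 13793 carry a symbol and 8730 do not. Muc2 and Fcgbp had no probe of that name and were not analysed here. Signals were read on Illumina RatRef-12 BeadChips in Sprague Dawley rat pups, in colon of embryonic day 21 (E21, n = 5) and of postnatal days (PND) 1, 2, 3, 5, 7, 10, 15 and 22 (n = 6 at each), with 54 brain samples of the same 9 ages as the other tissue of the study. The labels give no treatment and no transgene for any group. All E21 pups were delivered by Caesarean section from 1 mother, and her litter and the age cannot be told apart. The litters of the later pups are not given in the sources used here, and a p-value then measures the spread between these samples.

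Goblet cells are secretory cells of the gut epithelium that store mucin in granules and release it to build the mucus layer over the colon. Their other products set the properties of that layer: a trefoil peptide and a metalloprotease act on the mucus itself, a lectin binds bacteria in it, and an isomerase of the endoplasmic reticulum folds mucin before it is packed. In the mouse, resistin-like molecule beta is the goblet cell product best known for depending on bacteria and on type 2 cytokines. Suckling ends with weaning, when solid food and a new flora reach the colon.

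Each value below is a signal of 1 probe after quantile normalization of the deposited bead intensities, and values are set against each other only within a gene. Where in its transcript a probe lies was not determined. A signal counts as detected at a detection p-value under 0.05, which on these colon arrays lay at a normalized signal of 65.6 to 72.9. The 6 genes were detected in all 53 colon samples, except Spink4, which was detected in 51. In colon, 10276 to 12277 probes were detected per array, and the lowest correlation of an array with the median of its group was 0.975. Called means an adjusted p under 0.01 in limma, after Benjamini-Hochberg adjustment across the 22523 probes. Over the 9 ages, 5 of the 6 genes were called (limma's F test) where 36.7% of all probes were called. Clca1 was not called, with an adjusted p of 0.0163. These are pieces of whole colon, in which fewer goblet cells and less RNA per goblet cell cannot be told apart.

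**Figure D1:**
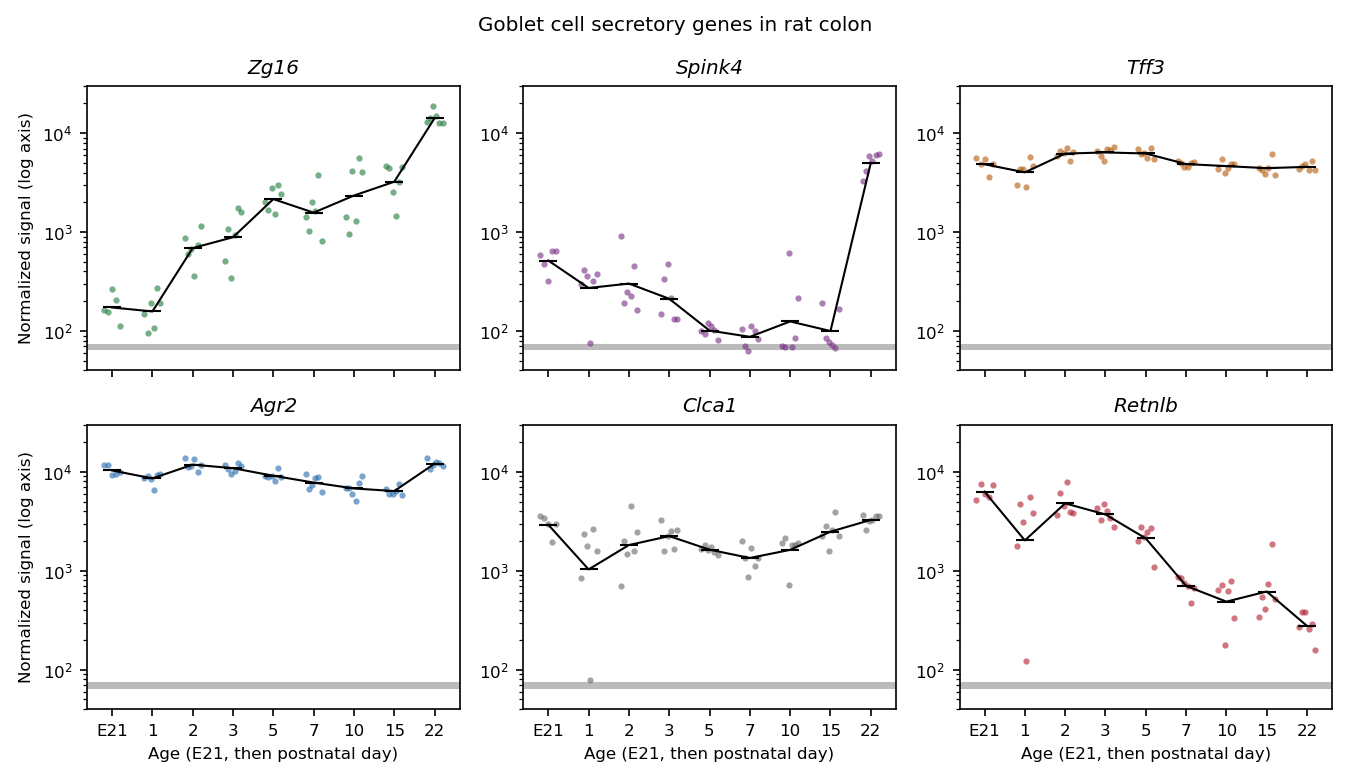
Normalized signal (log axis) of the 6 genes in every colon sample by age, with 1 point per sample, a dash and line at the mean on the log scale, and a grey band at the detection limit of 65.6 to 72.9. Zg16 climbs in stages. Spink4 lies near the limit in most samples of PND 5 to PND 15, with 610 and 216 in replicates 3 and 6 of PND 10, and then rises at PND 22. Retnlb has its highest mean at E21 and its lowest at PND 22.

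Zg16 encodes a lectin-like protein of mucus that binds the cell wall of Gram-positive bacteria, and it was first found on zymogen granules of rat pancreas. Its gene (probe ILMN_1366988) lies on chromosome 1 from 191088248 to 191090605 (GRCr8). In colon the signal was 164, 155, 266, 207 and 111 in the 5 samples of E21, and at PND 1 it ran from 96.2 to 272 with a median of 170. At PND 2 it ran from 362 to 1147 with a median of 706. At PND 5 the lowest was 1521, the median 2199 and the highest 2981. All 6 samples of PND 2 lay above all 6 of PND 1, and all of PND 5 above all of PND 2. At PND 15 the signal ran from 1448 to 4672 with a median of 3856, and at PND 22 from 12610 to 18864 with a median of 13492. The highest mean was at PND 22 and the lowest at PND 1, 89.9-fold apart (adjusted p of the F test 8.10e-21).

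Zg16 rose over 2 steps between neighbouring ages. From PND 1 to PND 2 it rose 4.37-fold (log2 2.13 ± 0.37 SE, adjusted p 6.74e-04), where 0.324% of all probes were called. From PND 15 to PND 22 it rose 4.39-fold (log2 2.13 ± 0.37 SE, adjusted p 6.33e-06), where 18.4% were called. Between them it did not pass the test at any step, with log2 changes from -0.46 to 1.28. Against E21 it was higher at every age from PND 2 on, by 3.99-fold at PND 2, 12.5-fold at PND 5, 18.7-fold at PND 15 and 82.0-fold at PND 22 (log2 6.36 ± 0.39 SE, adjusted p 1.51e-19). In fits without each colon sample in turn the step from PND 1 to PND 2 gave a log2 change of 1.98 to 2.31 and the step from PND 15 to PND 22 one of 1.90 to 2.24, all called. The spread among pups was wide between these steps. At PND 10 the 6 samples gave 1418, 966, 4131, 1285, 5636 and 4025, so that replicates 3, 5 and 6 stood well above replicates 1, 2 and 4.

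Spink4 encodes a small protease inhibitor of the Kazal type that marks goblet cells. The gene (probe ILMN_1365120) lies on chromosome 5 from 60811899 to 60860823 (GRCr8). The samples of E21 gave 584, 472, 324, 638 and 643. The signal then fell with age. At PND 5 it ran from 82.0 to 119 with a median of 102, and at PND 15 from 66.6 to 190 with a median of 81.1 near the detection limit. At PND 22 it ran from 3319 to 6189 with a median of 5567. No sample of another age came near these 6, the highest being a sample of PND 2 at 919.

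The rise of Spink4 from PND 15 to PND 22 was 50.1-fold (log2 5.65 ± 0.40 SE, adjusted p 3.95e-16, exact two-sided permutation test p = 0.00216, the smallest that 6 against 6 can give). At PND 15 it was detected in 5 of the 6 samples, and after normexp background correction the log2 change was 6.51 (adjusted p 3.72e-13). No other step of Spink4 was called. Against E21, Spink4 was lower by 5.11-fold at PND 5, 5.91-fold at PND 7, 4.13-fold at PND 10 and 5.16-fold at PND 15, with adjusted p from 5.77e-06 to 1.75e-04, and 9.71-fold higher at PND 22 (adjusted p 4.34e-09). Zg16 was called higher than at E21 at the same 4 ages at which Spink4 was called lower. At PND 10 the samples of Spink4 gave 71.0, 69.0, 610, 69.4, 85.1 and 216, with replicates 3 and 6 apart from the others.

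Agr2 encodes a protein disulfide isomerase of the endoplasmic reticulum that, in the mouse, is needed to make mucin. The gene (probe ILMN_1352638) lies on chromosome 6 from 58435908 to 58456678 (GRCr8). The samples of E21 gave 11614, 11614, 9326, 9486 and 9869. The median was 11520 at PND 2 (9937 to 13751), 6215 at PND 15 (5863 to 7551) and 12096 at PND 22 (10595 to 13935). All 6 samples of PND 22 lay above all 6 of PND 15. The rise between these ages was 1.89-fold (log2 0.92 ± 0.11 SE, adjusted p 5.97e-10). Against E21, Agr2 was lower by 1.52-fold at PND 10 (adjusted p 3.18e-05) and by 1.62-fold at PND 15 (adjusted p 1.45e-06). It was also lower by 1.32-fold at PND 7 (adjusted p 0.00573), a call that was lost without any 1 of 5 samples: without E21 replicate 2 or 3 the adjusted p was 0.0244 and 0.0253, and without PND 7 replicate 2, 3 or 6 it was 0.0207, 0.0129 and 0.0263. Scaling each array to its 75th percentile ended this call too (adjusted p 0.195). At PND 22 Agr2 was not called against E21, with a log2 change of 0.23 ± 0.11 SE, but it was with scaling to the 75th percentile, at 0.56 (adjusted p 0.00151).

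Spink4 and Agr2 rose over the same step, from PND 15 to PND 22. The stretches of 250 bases before to 50 bases after their starts, from RefSeq for GRCr8, are printed to show what lies next to genes that moved together, 5′ to 3′ on the strand of the gene. Capitals mark matches on either strand to 5 motifs: TATAAA, where general initiation factors bind, TTTATG for the CDX family, TGTTTAC for the FOXA family, AGATAA for the GATA family of zinc finger proteins, and, for STAT6, TTC and GAA with 4 bases between. For Spink4 2 such stretches were found, on the plus strand at chr5:60839669-60839968 and chr5:60848810-60849109, named first and second start below. For Agr2 1 was found, on the plus strand at chr6:58435658-58435957. The Spink4 gene begins at 60811899, upstream of both its stretches, and the sequence at that end is not printed here.
Spink4, first start: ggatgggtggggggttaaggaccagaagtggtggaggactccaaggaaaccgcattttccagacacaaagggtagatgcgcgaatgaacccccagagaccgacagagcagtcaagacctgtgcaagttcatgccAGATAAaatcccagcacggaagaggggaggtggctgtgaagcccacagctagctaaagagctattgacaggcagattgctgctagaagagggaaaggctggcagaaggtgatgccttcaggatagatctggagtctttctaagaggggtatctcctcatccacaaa
Spink4, second start: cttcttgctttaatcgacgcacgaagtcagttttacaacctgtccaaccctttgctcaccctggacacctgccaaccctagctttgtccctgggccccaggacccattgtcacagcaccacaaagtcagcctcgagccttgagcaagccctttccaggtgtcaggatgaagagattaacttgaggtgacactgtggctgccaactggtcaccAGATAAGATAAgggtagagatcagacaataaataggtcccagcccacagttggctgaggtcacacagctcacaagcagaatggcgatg
Agr2: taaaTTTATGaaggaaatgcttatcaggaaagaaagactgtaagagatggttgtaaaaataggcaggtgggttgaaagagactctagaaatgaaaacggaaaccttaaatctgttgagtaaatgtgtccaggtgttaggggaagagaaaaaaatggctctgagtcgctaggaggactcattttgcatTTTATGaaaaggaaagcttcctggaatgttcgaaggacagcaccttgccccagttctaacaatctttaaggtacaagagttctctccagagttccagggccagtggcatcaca

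The second Spink4 stretch holds AGATAA 2 times, 38 and 33 bases before the start, which overlap by 1 base, and the first holds it 1 time, 116 bases before the start. The Agr2 stretch holds TTTATG 2 times, 246 and 63 bases before the start. The 2 genes share none of the 5 motifs here. Of 33469 stretches of this kind in the table, 11.6% hold AGATAA and 12.7% hold TTTATG, against 14.2% for TATAAA, 3.78% for TGTTTAC and 7.28% for the STAT6 motif. Stretches were found for 5 of the 6 genes, and Zg16 had none in the table.

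Tff3 encodes intestinal trefoil factor, a small peptide released with mucin that helps the epithelium to close wounds. The gene (probe ILMN_1374680) lies on chromosome 20 from 9194623 to 9199333 (GRCr8). It changed far less than Zg16, Spink4 and Retnlb, with 1.59-fold between its highest mean (PND 3) and its lowest (PND 1). The samples of E21 gave 5661, 4925, 5455, 3614 and 4887. At PND 1 the signal ran from 2842 to 5809 with a median of 4309, at PND 2 from 5220 to 7056 with a median of 6353, and at PND 22 from 4214 to 5220 with a median of 4490. The samples of PND 1 and PND 2 overlapped. Tff3 rose 1.55-fold from PND 1 to PND 2 (log2 0.63 ± 0.12 SE, adjusted p 0.00169), and this call did not hold when PND 1 replicate 1 or replicate 4 was left out (adjusted p 0.0112 and 0.0121) or with scaling to the 75th percentile (0.0129). It fell from PND 3 to PND 22 by 0.48 on the log2 scale, 1.40-fold (adjusted p 8.44e-04), which was not called with scaling to the 75th percentile (log2 -0.12, adjusted p 0.712). It was not called at any age against E21.

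Clca1 encodes a metalloprotease secreted into mucus, where it processes Muc2. The gene (probe ILMN_1365394) lies on chromosome 2 from 236599022 to 236624714 (GRCr8). The samples of E21 gave 3579, 3430, 2989, 1947 and 2981. The median went from 1695 at PND 1 to 1345 at PND 7 and 3409 at PND 22 (2557 to 3626). At PND 1 the signal ran from 78.6 to 2666, where the lowest was replicate 4 and the next lowest was 846. Clca1 was called at no step and at no age against E21, but its change from E21 to PND 1 was without PND 1 replicate 5 (log2 -1.77, adjusted p 0.00878, against -0.76 and 0.121 without PND 1 replicate 4) and that from E21 to PND 7 without PND 1 replicate 4 (adjusted p 0.00298). Its F test gave an adjusted p of 0.00601, 6.64e-04, 0.00445 and 0.00928 without PND 1 replicate 2, 4 or 5 or PND 2 replicate 4, each of which would be a call, as would the 0.00238 with scaling to the 75th percentile.

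**Figure D2:**
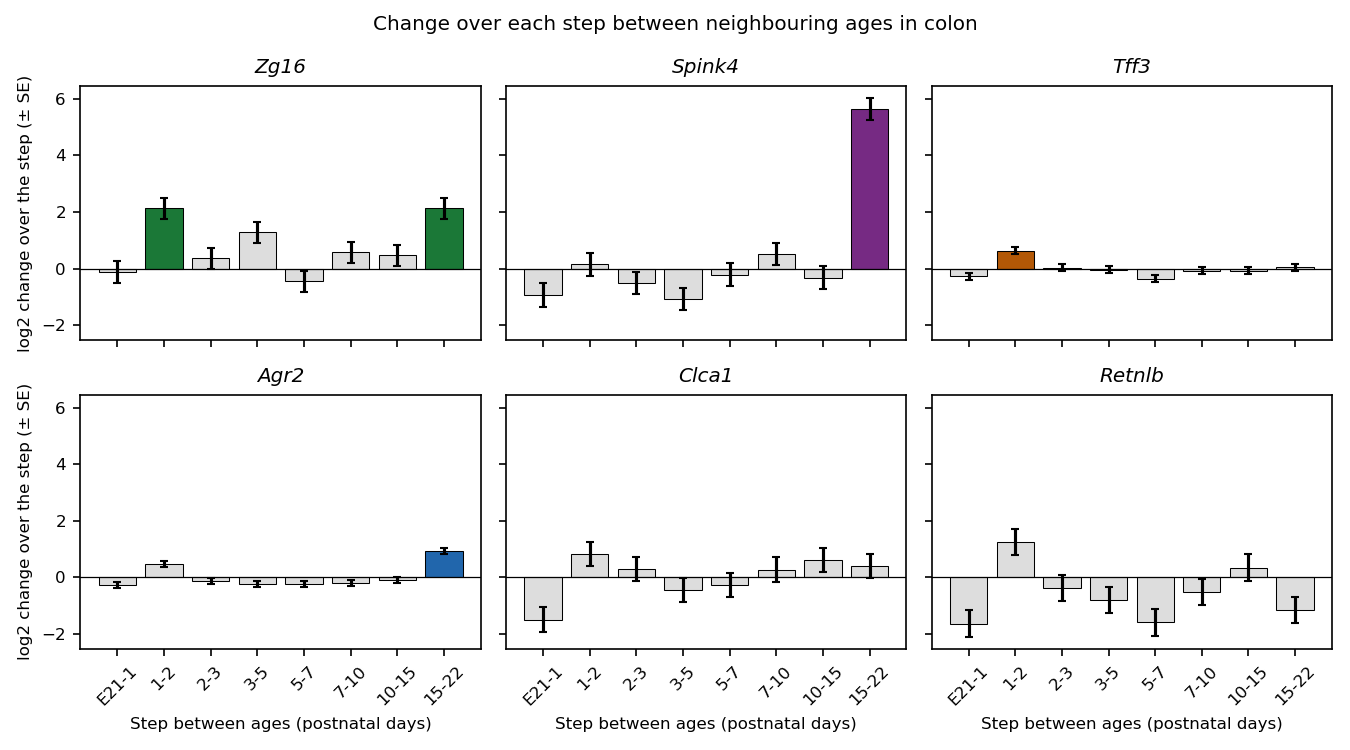
Log2 change over each step between neighbouring ages in colon (bars, limma, ± SE), with coloured bars where the adjusted p was under 0.01 and grey bars where it was not. Coloured bars stand at PND 1 to PND 2 for Zg16 and Tff3 and at PND 15 to PND 22 for Zg16, Spink4 and Agr2, and Retnlb and Clca1 have none.

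Retnlb encodes resistin-like molecule beta, a goblet cell protein that, in the mouse, kills Gram-negative bacteria and acts against worms. The gene (probe ILMN_1365931) lies on chromosome 11 from 65446433 to 65448319 (GRCr8). Its course went down. The samples of E21 gave 5248, 7592, 6013, 5636 and 7437. At PND 2 the signal ran from 3664 to 7920 with a median of 4248, at PND 5 from 1098 to 2804 with a median of 2352 and at PND 7 from 470 to 866 with a median of 722. All samples of PND 7 lay below all samples of PND 5. At PND 15 the median was 531 (343 to 1859) and at PND 22 it was 279 (157 to 382). From E21 to PND 22, Retnlb fell by 4.51 on the log2 scale (± 0.49 SE), 22.8-fold, with an adjusted p of 5.53e-11 and no overlap (exact two-sided permutation test p = 0.00433, the smallest that 5 against 6 can give).

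Against E21, Retnlb was called from PND 7 on, at 8.97-fold lower at PND 7, 12.9-fold at PND 10 and 10.2-fold at PND 15 (adjusted p 2.11e-06, 5.14e-08 and 2.28e-07). No single step of Retnlb was called. Its steepest step without overlap was PND 5 to PND 7, where it was 3.02-fold lower with an adjusted p of 0.0466. These adjusted p-values moved with PND 1 replicate 4, whose Retnlb signal was 123 where the other 5 samples of PND 1 lay at 1798 to 5580. Without that sample the step from PND 5 to PND 7 (adjusted p 7.48e-04), the step from PND 15 to PND 22 (adjusted p 0.00234) and the change from E21 to PND 5 (adjusted p 4.10e-04) were called, with the same log2 changes. The change from E21 to PND 1 was -1.64 on the log2 scale (adjusted p 0.0273). It was called without PND 1 replicate 5 (-1.93, adjusted p 0.00953) and came to -0.83 without PND 1 replicate 4 (adjusted p 0.128).

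PND 1 replicate 4 stood apart in several of the genes. It had the lowest signal of its age in Spink4 (76.0, the others 302 to 410), Retnlb, Clca1 (78.6, the others 846 to 2666), Agr2 (6627, the others 8482 to 9628) and Tff3 (2842, the next 2981). Its Retnla signal was 162, the lowest of that age, where Retnla reached 10839. Its Zg16 signal of 106 was not the lowest of its age. The summed signal of 6 epithelial genes was 39926 in it and 34279 to 42474 in the other samples of PND 1. Its sum of 13 absorptive cell genes was the highest of its age (8716, the others 3404 to 6785), as was its pancreas sum (1359, the others 835 to 1016), and its sum of 7 fibroblast genes was the lowest (27678, the others 33869 to 40369). Their part in its low values was not tested.

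Retnla, a relative of Retnlb better known from macrophages and fat tissue in the mouse, lies near it on chromosome 11 and was also called lower at PND 22. Of 5791 named genes detected in all colon samples, it had the highest Pearson correlation with Retnlb over the 53 samples (r = 0.855), followed by Tram1 (0.855), Cse1l (0.849), Rpa2 (0.837) and Tuba1b (0.829). The first 2 are level, and over the 9 age means Retnla had the lowest of the 5 correlations (0.834, the others 0.929 to 0.968). All these points share the arrays and the ages. Its mean signal with SD was 6913 ± 1922 in the 5 samples of E21, and 8380 ± 1240, 3145 ± 1523 and 483 ± 252 in the 6 samples each of PND 3, PND 15 and PND 22. It fell 16.2-fold from E21 to PND 22 (adjusted p 3.92e-09) and, unlike Retnlb in the full data, over the step from PND 15 to PND 22 too, by 7.01-fold (adjusted p 6.78e-06). The difference between the 2 genes over that step was not tested. The probe sequences were not used here, and whether either probe also binds the transcript of the other gene was not tested.

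The stretches around the starts of these neighbours are printed as both were called lower at PND 22 than at E21, from RefSeq for GRCr8 and on the minus strand, Retnlb at chr11:65448270-65448569 and Retnla at chr11:65426137-65426436, with the same motifs searched.
Retnlb: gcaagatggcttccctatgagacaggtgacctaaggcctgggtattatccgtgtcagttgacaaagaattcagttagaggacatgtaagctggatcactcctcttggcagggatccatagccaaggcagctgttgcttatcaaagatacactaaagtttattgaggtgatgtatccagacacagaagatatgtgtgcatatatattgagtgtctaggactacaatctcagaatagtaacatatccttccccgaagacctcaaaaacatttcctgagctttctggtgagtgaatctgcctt
Retnla: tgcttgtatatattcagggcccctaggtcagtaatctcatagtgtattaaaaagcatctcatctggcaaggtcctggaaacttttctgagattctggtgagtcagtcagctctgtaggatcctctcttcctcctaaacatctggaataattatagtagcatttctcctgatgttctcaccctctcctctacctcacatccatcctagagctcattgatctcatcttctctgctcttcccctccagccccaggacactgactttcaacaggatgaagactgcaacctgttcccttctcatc
Neither holds any of the 5 motifs, so no letter is in capitals. This says only that these letters are not in these windows.

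The opposite course of Retnlb was set against the other genes on the log2 scale. From E21 to PND 22 Zg16 rose by 6.36 and Spink4 by 3.28, where Retnlb fell by 4.51, and 3 of the 6 genes were called where 25.3% of all probes were. From PND 3 to PND 22 Spink4 rose by 4.56 and Zg16 by 4.00, while Retnlb fell by 3.74 and Tff3 by 0.48, 4 of 6 where 24.4% of probes were called. The change of each gene minus that of Retnlb was called for all 5 other genes in both comparisons, but so was that of 99.9% and 99.8% of all probes. That test shows how far Retnlb moved and nothing particular to the goblet cell genes.

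**Figure D3:**
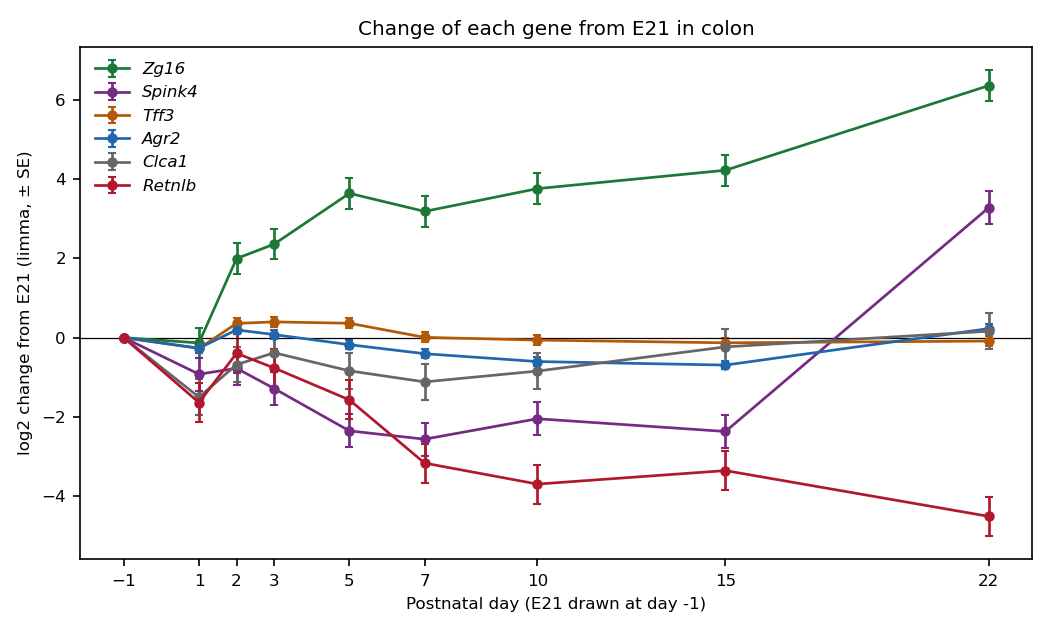
Log2 change of each gene from E21 in colon (limma, ± SE) against postnatal day, with E21 drawn at day -1. Zg16 is above 0 from PND 2 on and ends at 6.36, Spink4 is below 0 until PND 15 and ends at 3.28, Retnlb ends at -4.51, and Tff3, Agr2 and Clca1 stay closer to 0.

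The order of the rises was also read as the day on which the line between age means crossed the midpoint between the E21 level and the highest level on the log2 scale, as a description. Zg16 crossed at day 4.28 (4.08 to 4.40 without each sample in turn) and Spink4 at day 19.97 (19.9 to 20.1). Retnlb crossed the midpoint of its fall at day 5.86 (5.75 to 5.98). On the linear scale Zg16 crossed at day 17.4 and Spink4 at day 18.8, so their wide gap belongs to the log2 scale. Retnlb crossed on the linear scale at day 0.911, a day that rested on single samples: it was 3.56 without PND 1 replicate 1 or 4, and 3.76 without E21 replicate 3. Tff3 (day 1.75), Agr2 (day 1.82) and Clca1 (day 20.6) have no called difference between E21 and their highest age, so their days place small changes, and Agr2 moved to day 20.6 with scaling to the 75th percentile.

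Counted over steps, 0 of the 6 genes were called from E21 to PND 1 (3.73% of probes), PND 3 to PND 5 (0.0133%), PND 5 to PND 7 (1.21%), PND 7 to PND 10 (1.11%) and PND 10 to PND 15 (1.94%). At an unadjusted p under 0.05 from limma these steps had 5, 3, 3, 0 and 0 of the 6. Of the 22523 probes, 4578, 2295, 3251, 2442 and 3123 passed that limit. From PND 2 to PND 3 no probe at all was called (0%), with 1559 probes and 0 of the 6 genes at an unadjusted p under 0.05. The 2 steps with calls were PND 1 to PND 2, with 2 of 6, and PND 15 to PND 22, with 3 of 6. Of all probes, 0.324% and 18.4% were called over these steps. The 6 genes were chosen with earlier results of these data known, so their shares cannot test for an excess over all probes. Against E21 the genes called were 1 of 6 at PND 2 (2.22% of probes) and PND 3 (3.71%), 2 at PND 5 (5.32%), and 4 at PND 7 (12.1%), PND 10 (13.5%) and PND 15 (19.3%). From PND 7 to PND 15 these were Zg16 upward and Spink4, Retnlb and Agr2 downward.

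Other tissue in the samples of PND 22 moved with the late rise. The summed signal of 6 pancreas genes (Prss1, Cpa1, Cela1, Pnlip, Amy2a3 and Cel) lay at 516 to 1359 in the 47 colon samples before PND 22. In replicates 1 to 6 of PND 22 it was 10717, 25560, 21537, 10203, 1326 and 2021. All 6 genes were called upward from PND 15 to PND 22, where 18.4% of all probes were called, with Pnlip 53.8-fold higher. Of 7 stomach genes measured, 0 were called by limma, with a summed signal of 394 to 419 at PND 22 and 373 to 435 at the earlier ages. Replicates 5 and 6 gave 12730 and 12610 for Zg16, where the other 4 gave 12868 to 18864 and the samples of PND 15 at most 4672. For Spink4, replicates 5 and 6 were the highest of PND 22, at 5982 and 6189. These samples also had the lowest sums of 7 fibroblast genes of PND 22 (10712 and 9854, the others 13162 to 29790). The part of that difference was not tested. With replicates 5 and 6 alone at PND 22, the step from PND 15 was 5.93 on the log2 scale for Spink4 (adjusted p 1.98e-11), 1.97 for Zg16 (adjusted p 0.00479) and 0.89 for Agr2 (adjusted p 7.44e-06). The change of Retnlb from E21 was then -4.90 (adjusted p 1.38e-07). The fall of Tff3 from PND 3 to PND 22 was then no longer called (log2 -0.45, adjusted p 0.0493).

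**Figure D4:**
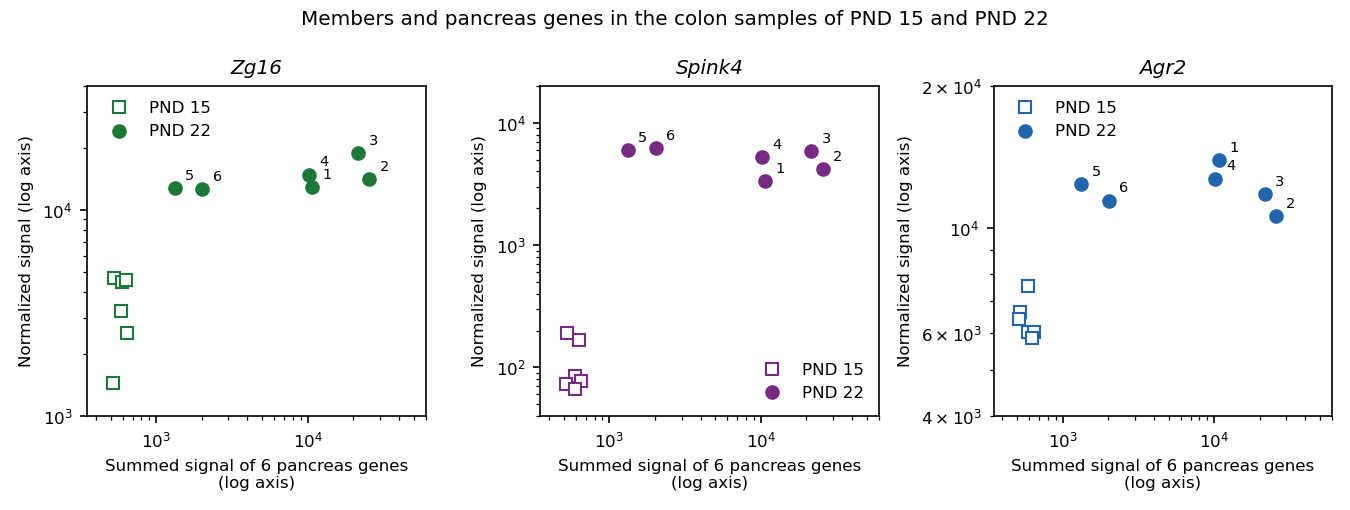
Normalized signal of Zg16, Spink4 and Agr2 against the summed signal of 6 pancreas genes (both log axes) in the colon samples of PND 15 (open squares) and PND 22 (filled circles, numbered by replicate). Replicates 5 and 6 of PND 22, at 1326 and 2021 on the lower axis, lie with the other samples of PND 22 in all 3 genes.

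The make-up of the tissue also differed. Summed over 6 smooth muscle genes the signal was 14510 to 33872 at PND 22 and 35098 to 39373 at PND 15, and over 7 fibroblast genes 9854 to 29790 and 29827 to 38216. All 6 and all 7 were called downward over that step, where 18.4% of all probes were called in either direction. The 6 epithelial genes summed to 48585 to 55329 at PND 22 and 39378 to 46514 at PND 15, with 3 of 6 called upward. Read against the mean of these epithelial genes in each sample, which shifts the median of all probes by -0.53 from PND 15 to PND 22 and by -0.74 from E21 to PND 22, Spink4 rose by 5.10, Zg16 by 1.59 and Agr2 by 0.38 over the late step, all called. Retnlb then fell by 1.70 over that step (adjusted p 8.37e-04) and by 5.24 from E21 to PND 22. From E21 to PND 22 Zg16 rose by 5.62 in place of 6.36 and Spink4 by 2.54 in place of 3.28, both called. Agr2 turned to a fall of 0.51 from E21 to PND 22 (adjusted p 4.47e-05) and Tff3 to a fall of 0.50 over the late step (adjusted p 6.60e-04). Both falls were smaller than the shift of the median probe. With this reference 20367 of the 22523 probes were called lower from E21 to PND 22 and 19759 over the late step. These calls of Agr2 and Tff3 are thus not particular to them. The part of the tissue make-up in the other values was not tested.

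The families of the 6 genes gave a mixed picture. Of 10 measured relatives, 3 were called upward and 1 downward from E21 to PND 22, where 25.3% of all probes were called. The median log2 change was 0.19 in the list and -0.01 over all probes. Clca4, a relative of Clca1 made by absorptive cells, rose 11.5-fold (adjusted p 2.64e-13), with means of 229 at E21, 1332 at PND 3, 735 at PND 15 and 2388 at PND 22. Agr3, a relative of Agr2, rose 1.62-fold (adjusted p 8.81e-04). Tff2, a trefoil peptide best known from stomach, rose (adjusted p 3.08e-09) from 52.0 ± 4.2 (SD, n = 5) at E21, where it was detected in 0 samples, to 515 ± 538 (SD, n = 6) at PND 22. The spread of Tff2 at PND 22 was 81.6 to 1397. Muc1 and Muc20, the 2 other mucins with a named probe, were not called.

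Mucin glycosylation is the work of Golgi enzymes that add sugar chains to the protein. From PND 15 to PND 22, 12 of 21 of its genes were called upward and 0 downward, where 18.4% of all probes were called in either direction, with a median log2 change of 0.48 beside 0.01 over all probes. From E21 to PND 22 the count was 11 upward and 1 downward, where 25.3% of all probes were called, with a median of 0.44. C1galt1, which makes the core 1 chain, rose 2.22-fold over the late step (adjusted p 1.13e-08), and its chaperone C1galt1c1 rose 1.97-fold from E21 to PND 22 (adjusted p 2.39e-05). Fut1, a fucosyltransferase, rose 2.36-fold from E21 to PND 22 (adjusted p 5.64e-06). St6galnac1, which adds sialic acid to O-linked chains, was detected in 0 of 5 samples of E21 and in all 6 of PND 22, where it ran from 78.2 to 139 (adjusted p 0.00439). The summed epithelial signal was also higher at PND 22, and its part in these counts and in those of the lists that follow was not tested.

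Of 17 transcription factors and regulators of the secretory lineage, 8 were called upward and 0 downward from PND 15 to PND 22 (18.4% of all probes, median log2 change 0.46), and 5 upward and 3 downward from E21 to PND 22 (25.3% of all probes). Klf4, needed for goblet cells in mouse colon, rose 3.69-fold from E21 to PND 22 (adjusted p 3.00e-12) and Elf3, an epithelial Ets factor, 2.63-fold (adjusted p 3.99e-13). Cdx2, the hindgut factor, rose 1.44-fold (adjusted p 0.00453), and Notch1, whose signal holds back the secretory fate, fell 1.70-fold (adjusted p 8.76e-09). Foxa3, a factor of goblet and endocrine cells, had the course most like that of Agr2 over the 53 samples (r = 0.917), ahead of Slc35a3 (0.830), Tmem97 (0.794), RT1-DMa (0.789) and Galnt3 (0.785). Its mean was 340 at E21, 216 at PND 10, 178 at PND 15 and 364 at PND 22, and like Agr2 it rose over the late step (2.05-fold, adjusted p 5.42e-08).

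Genes of protein folding and export from the endoplasmic reticulum did not share a direction from E21 to PND 22. Of 28, 4 were called upward and 7 downward (25.3% of all probes, median log2 change 0.07). Pdia6, an isomerase like Agr2, fell 1.78-fold (adjusted p 9.96e-10), and the chaperones Hsp90b1 and Hspa5 fell 1.54-fold and 1.48-fold (adjusted p 9.60e-06 and 1.16e-05). Edem1, which sends misfolded proteins to degradation, rose 1.43-fold (adjusted p 1.47e-07) from near the detection limit, with 1 of 5 samples of E21 detected. Over the late step 5 of the 28 were called upward and 0 downward, a share near the 18.4% of all probes. Of 15 genes of granule release and mucus hydration, 7 were called upward and 0 downward over the late step (18.4% of all probes). From E21 to PND 22 it was 8 upward and 1 downward (25.3% of all probes, median 0.45). Slc9a2, a sodium-proton exchanger, rose 13.8-fold (adjusted p 1.88e-31), Nlrp6, which in the mouse drives mucus release, 2.58-fold (adjusted p 7.03e-10), and Guca2a, the guanylin precursor, 2.15-fold (adjusted p 2.49e-09).

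Among other epithelial defence genes, 9 of 20 were called upward and 2 downward from E21 to PND 22 (25.3% of all probes, median 0.54). Pla2g2a, a bactericidal phospholipase, rose 38.3-fold (adjusted p 4.29e-20) and Pigr, which carries antibodies to the lumen, 23.3-fold (adjusted p 1.41e-23). Itln1, a goblet cell lectin, rose 2.94-fold (adjusted p 0.00186). Lcn2, which takes up bacterial siderophores, fell 4.33-fold (adjusted p 7.41e-07), so Retnlb was not alone in its direction among genes of this kind. Of 22 genes of type 2 cytokine signalling, which controls Retnlb in the mouse, 4 were called upward and 3 downward (median 0.03), a share not far from the 25.3% of all probes. Il33 fell 1.96-fold (adjusted p 1.09e-06) and Ccl11 3.63-fold (adjusted p 1.94e-07). Stat3, another factor than the STAT6 of the motif search, rose 1.44-fold (adjusted p 8.62e-07).

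Marker genes of other cells of the colon wall were read in the same way from E21 to PND 22, where 25.3% of all probes were called and the shares of endocrine, tuft and dividing cell genes lay near that. Of absorptive cell genes 10 of 13 were called upward and 1 downward, among them Car1, a carbonic anhydrase, at 59.7 to 73.4 at E21, where 2 of 5 samples were detected, and 13569 to 21725 at PND 22, and of endocrine cell genes 2 of 8 upward. Of tuft cell genes 1 of 4 was called upward, of dividing and stem cell genes 2 of 6 downward and of immune cell genes 6 of 10 upward and 2 downward. Of nerve and glia genes 4 of 5 were called downward and of red blood cell genes 2 of 5 downward. The epithelial list had 5 of 6 upward.

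Brain has no goblet cells. Zg16 was detected in 0 of 54 brain samples by its detection p-value (highest signal 62.4), Retnlb in 1, and Spink4 and Agr2 in 5 each. From PND 3 to PND 22, 23.9% of probes were called in brain, and of the 6 genes Tff3 and Clca1 were. Tff3, which is also made by neurons, was detected in 24 brain samples, among them every one of PND 15 and PND 22 and 1 of the 6 of PND 3. It was 60.3, 90.5, 66.4, 54.5, 60.4 and 65.6 in replicates 1 to 6 of PND 3 and ran from 119 to 252 at PND 15 (median 166) and from 295 to 477 at PND 22 (median 340). From PND 3 to PND 22 the measured brain signal differed 5.50-fold, upward (log2 2.46 ± 0.11 SE, adjusted p 2.49e-26), with no overlap, over a base at which 5 of 6 samples were not above background.

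The measured change of Tff3 in colon minus that in brain, over the same base, was -2.94 on the log2 scale (adjusted p 1.83e-29), where 21.2% of probes were called in this comparison. Clca1 was detected in every brain sample of PND 15 and PND 22 and in 1 earlier one, with signals of 68.4 to 90.6 at PND 22, just above the limit of 66.3 to 76.9 in brain. In PND 3 it was detected in 0 of 6 brain samples. The measured difference between PND 3 and PND 22 was 0.53 on the log2 scale (adjusted p 2.03e-06), and it was not called with scaling to the 75th percentile (log2 0.24, adjusted p 0.0870).

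**Figure D5:**
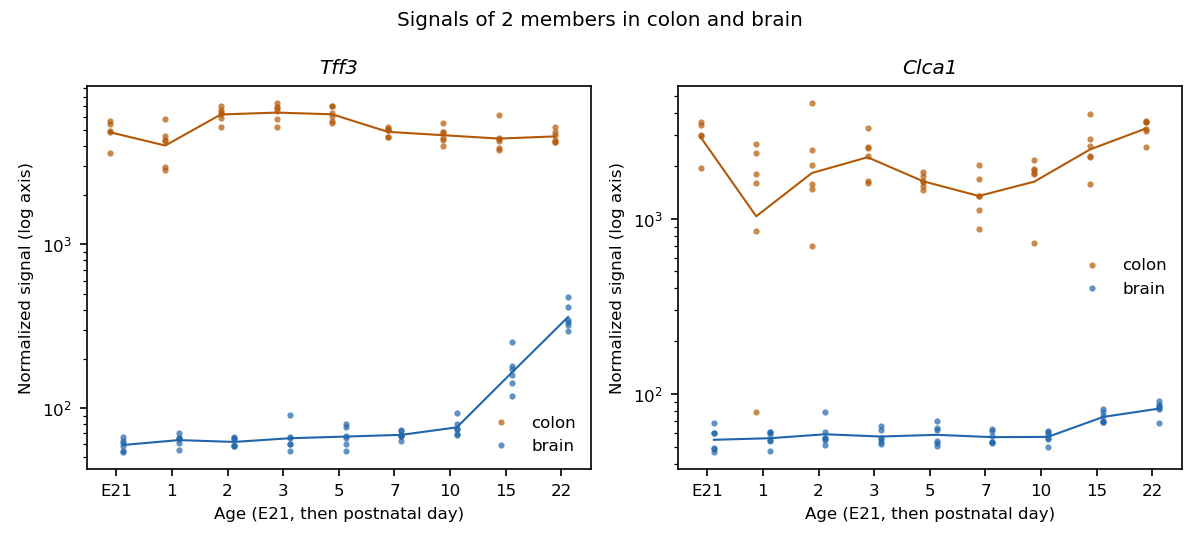
Normalized signal (log axis) of Tff3 and Clca1 in colon and brain by age, 1 point per sample, with lines through the means on the log scale. Brain Tff3 was detected in 3 of 6 samples of PND 7, 5 of 6 of PND 10 and all of PND 15 and PND 22. It reaches 295 to 477 at PND 22, while colon Tff3 stays between 2842 and 7269.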

How the data were processed

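Colon and brain pieces of Sprague Dawley pups were snap frozen and, per the labels, read as biotinylated cRNA on RatRef-12 BeadChips. The authors summarized each probe's intensity in BeadStudio and deposited it on a linear scale without normalization, with a detection p-value against negative control beads. The authors' own quantile-normalized intensity was used only as an alternative.

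Quantile normalization over 107 arrays, a floor of 1 and log2 were computed here, and age means were fitted by limma 3.58.1 (R 4.3.3) with eBayes, in colon and in brain apart. The difference from Retnlb used ordinary errors per probe, since all probes then share its noise. Exact permutation tests (32, unadjusted) used scipy 1.17.1. The steps were tested on simulated data.

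The genes, lists, markers and motifs were chosen with earlier results of these data known, and the comparisons of PND 2 to PND 15 with E21 and those in brain after values were seen. Other genes were named from up to 4 per list, with the largest called change from E21 to PND 22 and detection throughout the age with the higher level, and from the 5 with the course most like that of Retnlb and of Agr2, the brightest of the rest. The replicate numbers did not pair the samples.

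The alternatives were normexp correction by neqc (offset 16), scaling to the 75th percentile, quantile normalization within colon, a filter on detected probes, a floor of 16, trend and robust options of eBayes, a replicate block, epithelial genes as the reference, the F test named in the methods, fits that left out each sample and, chosen after the markers were seen, fits that left out PND 22 replicates 1 to 4.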

Additional observations from a re-analysis of the deposited data

Results flagged for a closer look

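There were 54 groups of colon samples, 6 genes at 9 ages. Of these, 8 held a sample whose gap to the nearest other sample took up an unusual share of the range of its group. Chance gives this in about 1 of 20 groups of normally spread values. The 6 genes are read on the same arrays, so the groups are not independent and the 8 cannot be set against that rate. In PND 1 replicate 4 the genes so flagged were Spink4 (76.0), Agr2 (6627), Clca1 (78.6) and Retnlb (123), all low. The others were Retnlb low in PND 5 replicate 6 (1098, the others 2020 to 2804), Clca1 low in PND 10 replicate 3 (724, the others 1803 to 2156), Agr2 high in PND 5 replicate 5 (11025, the others 8146 to 9052) and Tff3 high in PND 15 replicate 5 (6189, the others 3765 to 4448). The change from PND 3 to PND 22 in colon minus that in brain was called by limma for Spink4 (log2 4.54), Zg16 (4.08), Retnlb (-3.79) and Tff3 (-2.94). In this comparison 21.2% of all probes were called. Of these 4 genes only Tff3 was called in brain. Zg16, Retnlb and Spink4 were detected in 0, 1 and 5 of 54 brain samples, so their values here largely repeat the colon change.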

How the results depend on the processing

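Over the settings tried, other than fits that left out a sample, 187 counts of called genes stayed within 1.5 times their value and 5 did not. From PND 1 to PND 2 the count was 1 in place of 2 with scaling to the 75th percentile and with epithelial genes as reference. With that reference it was also 1 from PND 5 to PND 7, 5 from PND 15 to PND 22 and 5 from E21 to PND 22, and Tff3 turned to -0.50 from PND 15 to PND 22, Agr2 to -0.51 from E21 to PND 22 and Agr2 to -0.43 from PND 3 to PND 22 on the log2 scale. This reference moves the median of all probes by -0.74 from E21 to PND 22. The shift is -0.53 from PND 15 and -0.59 from PND 3 to PND 22. Each of these falls of Tff3 and Agr2 was smaller than that shift. Of the 22523 probes, 557 were called higher and 20367 lower from E21 to PND 22. From PND 15 to PND 22 it was 331 and 19759. The 2 counts of 5 thus show nothing particular to the 6 genes. Scaling to the 75th percentile moved the share of higher calls among all calls from PND 15 to PND 22 from 49.6% to 62.0%, and called Tff3 (log2 0.48, adjusted p 0.00430) over that step. In fits without each colon sample in turn the counts ran from 0 to 2 from E21 to PND 1 (2 without PND 1 replicate 5), from 1 to 3 from PND 1 to PND 2 (1 without PND 1 replicate 1 or 4) and from 0 to 1 from PND 5 to PND 7 (1 without PND 1 replicate 4). With the replicate block Agr2 was called from PND 1 to PND 2 (log2 0.46, adjusted p 0.00942 in place of 0.0137). The block changed no other call of the 6 genes. Same-numbered colon samples of different ages correlated by a median of 0.04 in their deviations from the age means. That step of Agr2 was also called with detected probes alone (0.00879) and without PND 1 replicate 6, PND 2 replicate 5 or PND 10 replicate 4 or 6 (adjusted p 0.00743 to 0.00959). The cause of these shifts was not tested. A mean over several probes of a gene was not run, since each gene has 1. The number of arrays limits the precision, and Spink4 in most samples of PND 5 to PND 15 and most brain values lie at or near the detection limit. Normexp correction moved Spink4 from E21 to PND 5 from -2.35 to -2.99 on the log2 scale.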
